A study of Mus musculus with 7 samples.

Results

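The regions described here are the nuclease hotspots at 10 imprinted mouse genes (H19, Igf2, Igf2r, Meg3, Dlk1, Peg3, Snrpn, Kcnq1ot1, Grb10 and Mest) and at the control regions near them. A hotspot is an interval in which nuclease cutting was enriched, taken as a sign of accessible chromatin. A hotspot was taken when it overlapped a gene body or the 20 kb on either side of it. This rule found 49 of 60910 Benzonase hotspots, 44 of 57675 Cyanase hotspots and 43 of 72286 DNase I hotspots. Hotspots of different lists that shared at least 1 bp were merged, which gave 69 of 94491 regions.

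All libraries came from livers of male C57BL/6 mice aged 8 weeks. Benzonase and Cyanase, endonucleases that cut DNA and RNA, were applied to intact frozen tissue that had been pulverized, each at 0.25, 1 and 4 U (3 samples per enzyme). DNase I was applied to nuclei isolated from fresh liver (1 labelled sample, whose list the study made from the combined tags of its replicates). The deposited data are 1 pooled hotspot list per nuclease, with no tag numbers, so the depth behind a hotspot could not be given, no value below has a replicate error, and no test between nucleases was possible. Enzyme and tissue preparation changed together and cannot be told apart. The mice are of an inbred strain and the lists carry no allele information, so a hotspot on the maternal allele, the paternal allele or both looks the same. In bulk liver a site open in few cells cannot be told from a site weakly open in many.

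Imprinted genes are expressed mainly from 1 parental allele. The choice is set by DNA methylation placed in the egg or sperm at certain differentially methylated regions (DMRs). Many DMRs are CpG-rich promoters that are methylated on one parental copy and open on the other. Methylation that comes from the egg or sperm is kept in the embryo with the help of the zinc finger protein ZFP57. CTCF binds the unmethylated copy of the H19 imprinting control region and insulates Igf2 from enhancers. H19, Igf2 and Dlk1 are strongly expressed in fetal liver and are turned down after birth. The control regions below were placed from general knowledge of these loci and from the gene annotation, and methylation was not measured here. They were not sorted by whether their methylation comes from the egg or sperm.

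The tissue label was checked on transcription starts. A start of 7 of 7 hepatocyte marker genes, among them Alb, Apoa1 and Hnf4a, lay in hotspots of all 3 nucleases, and 0 of 4 genes of other tissues (Neurod1, Myod1, Cd3e and Pou5f1) had a start in any. Of 3 Kupffer cell markers, 1 had a start in a Benzonase hotspot, 1 in a Cyanase hotspot and 3 in a DNase I hotspot. For 3 stellate cell markers the counts were 2, 3 and 0 in the same order, for 3 bile duct markers 2, 1 and 1, and for 3 sinusoidal endothelial markers 1, 1 and 1. The part of these cell types in the results below was not tested.

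Sequences at or near sites where the nuclease lists differed are shown first, on mm9. The H19 imprinting control region is known for a cluster of CTCF sites. A 14-base CTCF motif with 3 open bases, written for the sites of this region, had 4 matches 2 to 4 kb upstream of H19. Both strands were searched. All 4 lay on the minus strand and are written in the direction of H19 transcription, from the most distant match (chr7:149767931-149767960) through chr7:149767687-149767716 and chr7:149766661-149766690 to the nearest one (chr7:149766206-149766235). Capitals mark the match, with 8 bases on each side. 
CTCF match 1: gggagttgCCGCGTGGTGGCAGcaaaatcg
CTCF match 2: cagggttgCCGCACGGCGGCAGtgaagtct
CTCF match 3: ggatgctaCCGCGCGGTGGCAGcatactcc
CTCF match 4: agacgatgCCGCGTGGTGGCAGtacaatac
Matches 3 and 4 lay inside a Benzonase hotspot, while matches 1 and 2 lay in no hotspot of any list. Matches 1, 3 and 4 also met a stricter form with 2 open bases. The motif can share bases with the hexamer TGCCGC used below, and did so in 3 of the 4 matches.

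The intergenic DMR (IG-DMR) upstream of Meg3 holds a CpG island of 220 bp (chr12:110766463-110766682, plus strand). It is shown because it lay in a Benzonase hotspot and in no hotspot of the other nucleases. Capitals mark the hexamer TGCCGC, the core of the sequence that ZFP57 recognises when it is methylated.
IG-DMR CpG island: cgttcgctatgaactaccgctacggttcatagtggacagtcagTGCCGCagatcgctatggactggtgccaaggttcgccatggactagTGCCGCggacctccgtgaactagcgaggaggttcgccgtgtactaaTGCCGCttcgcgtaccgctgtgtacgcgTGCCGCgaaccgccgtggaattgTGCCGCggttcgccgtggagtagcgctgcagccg
The island held 5 hexamers, all on the plus strand. At least 1 hexamer was present in 20.5% of all 23578 CpG islands when a window of the same length was searched, and as many as 5 in 0.0339%. The hexamer was chosen for the known role of ZFP57 at imprinted regions, so these shares only describe the island.

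The next stretches are from sites where Benzonase and Cyanase hotspots overlapped and DNase I had none, with 1 DNase I unique hotspot next to the Airn site for contrast. They are the central 150 bases of the stretch that both hotspots shared at the start of Airn (chr17:12934158-12934307, plus strand), the central 150 bases of the DNase I hotspot before it (chr17:12933270-12933419, plus strand), the central 150 bases of the Snrpn region (chr7:67149038-67149187, minus strand), 150 bases before a start of Mest (chr6:30687900-30688049, plus strand) and 150 bases shared by both hotspots at the Grb10 DMR, taken outside the UTR (chr11:11925655-11925804, minus strand). Capitals mark each CpG.
Airn start, Benzonase and Cyanase: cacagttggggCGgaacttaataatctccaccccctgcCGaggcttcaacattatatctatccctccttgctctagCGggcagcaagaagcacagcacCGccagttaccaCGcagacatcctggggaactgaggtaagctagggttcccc
Airn upstream, DNase I alone: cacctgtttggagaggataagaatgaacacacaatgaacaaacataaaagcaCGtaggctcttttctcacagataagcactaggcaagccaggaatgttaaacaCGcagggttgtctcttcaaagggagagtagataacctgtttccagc
Snrpn, Benzonase and Cyanase: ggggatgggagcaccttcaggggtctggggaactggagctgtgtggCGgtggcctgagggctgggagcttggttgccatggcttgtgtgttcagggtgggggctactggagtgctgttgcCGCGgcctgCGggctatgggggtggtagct
Mest upstream: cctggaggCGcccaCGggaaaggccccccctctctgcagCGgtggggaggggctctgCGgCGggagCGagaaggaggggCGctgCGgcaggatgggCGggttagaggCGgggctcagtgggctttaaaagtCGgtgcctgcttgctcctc
Grb10 DMR, Benzonase and Cyanase: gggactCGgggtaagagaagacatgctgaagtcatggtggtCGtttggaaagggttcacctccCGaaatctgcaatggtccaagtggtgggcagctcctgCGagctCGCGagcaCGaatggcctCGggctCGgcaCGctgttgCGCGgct
The Grb10 stretch held 12 CpGs at a GC content of 60.7% and the Mest stretch 11 at 70.7%. The stretch at the Airn start held 5 CpGs at 55.3%, against 2 at 43.3% in the DNase I hotspot upstream of it. The Snrpn stretch was rich in G but held 4 CpGs at 66.0%.

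Hotspots were spread unevenly over the genes. Grb10 had 12 Benzonase, 13 Cyanase and 12 DNase I hotspots and Igf2r had 9, 7 and 12 in the same order. Kcnq1ot1 had 5, 5 and 7, Meg3 6, 9 and 5, Igf2 7, 3 and 3, and Peg3 3, 2 and 2. The remaining windows held few hotspots by number, which does not allow for window length. Per 10 kb, Dlk1 (0.396 for Benzonase and for Cyanase) was close to Kcnq1ot1 (0.405 for each). H19 had 1 Benzonase and 1 Cyanase hotspot, Dlk1 had 2 of each, and neither had a DNase I hotspot. Snrpn had 3, 1 and 1 in the longest window of 197718 bp, and Mest had 1 of each.

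**Figure D1:**
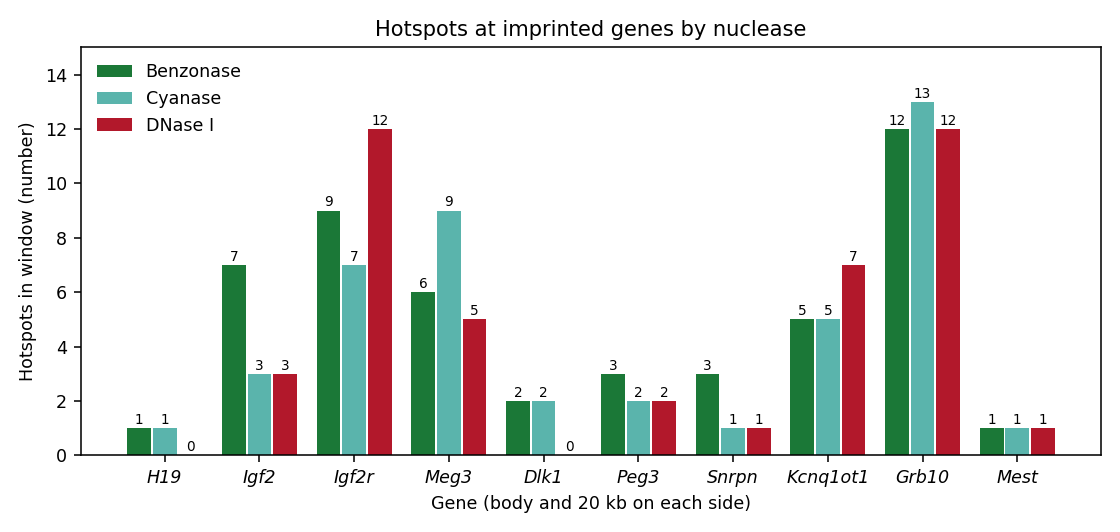
The bars give the number of Benzonase, Cyanase and DNase I hotspots (y axis) in the gene body and 20 kb on each side of each imprinted gene (x axis). Grb10 holds the most for each nuclease, with Igf2r equal to it for DNase I, and H19, Dlk1 and Mest hold 0 to 2 per nuclease, and the DNase I bars of H19 and Dlk1 are at 0.

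The density of hotspots, counted per 10 kb of window, had a median over the 10 genes of 0.428 for Benzonase, 0.400 for Cyanase and 0.418 for DNase I. Over all 37274 annotated genes it was 0.250, 0.249 and 0.304. The Benzonase and Cyanase densities were above the median of all genes in 7 of the 10 windows and the DNase I density in 5. Igf2 was the densest for Benzonase (1.25 per 10 kb), Meg3 for Cyanase (1.27) and Igf2r for DNase I (0.943). The median width was 713 bp for Benzonase, 632 bp for Cyanase and 745 bp for DNase I. One Igf2 region crossed the outer edge of its window, where the hotspots of all 3 nucleases lay 35.5 to 36.5 kb downstream of the outermost start.

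The 69 regions were sorted into common ones (DNase I and at least 1 of the other nucleases), DNase I unique ones and Benzonase-Cyanase unique ones. Of the 69, 26 were common (37.7%, 95% Wilson interval 27.2 to 49.5), where the genome-wide share was 45.4%. Another 16 were DNase I unique (23.2%, 14.8 to 34.4), against 28.3% genome-wide. The remaining 27 were Benzonase-Cyanase unique (39.1%, 28.5 to 50.9), against 26.3% genome-wide. These intervals cover counting error alone. Only the last of these shares had an interval that left out the genome-wide value, and neighbouring regions of a window are not independent. Regions with hotspots of all 3 nucleases numbered 25 (36.2%, against 40.0% genome-wide), and 12 had both Benzonase and Cyanase without DNase I (17.4%, against 10.2%). Benzonase was alone in 10 regions (14.5%, against 9.31%) and Cyanase in 5 (7.25%, against 6.80%).

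The classes differed in base composition. GC content averaged 58.9% ± 7.44 (SD over regions) in the 27 Benzonase-Cyanase unique regions, 49.6% ± 6.16 in the common ones and 43.2% ± 5.01 in the DNase I unique ones. The most GC-rich DNase I unique region had 52.0% GC, in an intron of Igf2r, below the mean of the Benzonase-Cyanase unique regions. A CpG island was present in 9 of the 27 Benzonase-Cyanase unique regions, 3 of the 26 common regions and 0 of the 16 DNase I unique regions. The study reported the same order of GC content over hotspots genome-wide. It also found CpG islands more often in Benzonase-Cyanase unique than in DNase I unique hotspots. The order is therefore not particular to these genes, and genome-wide values by class are not given here. Of the single hotspots, 10 of 49 by Benzonase and 10 of 44 by Cyanase had a GC content over 60%, against 2 of 43 by DNase I. Below 45% the counts were 6, 4 and 18. Mean GC content in the windows was 54.0% for Benzonase, 53.7% for Cyanase and 47.7% for DNase I, where the whole lists had 51.8%, 51.9% and 47.2%, so DNase I was lowest here as in the whole lists.

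**Figure D2:**
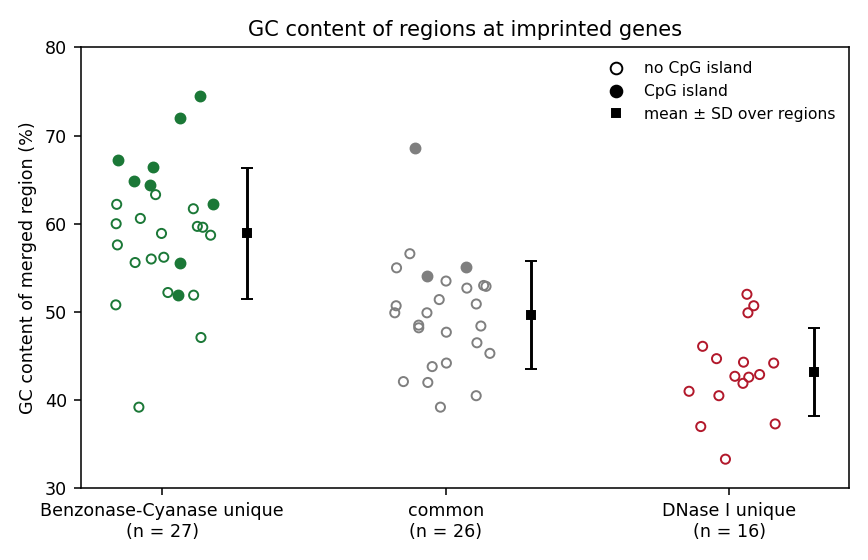
Each point is the GC content (y axis, percent) of a merged region at the imprinted genes, by class (x axis), filled where the region holds a CpG island, and squares with bars give the mean ± SD over regions. The Benzonase-Cyanase unique regions average 58.9%, the common ones 49.6% and the DNase I unique ones, none of which holds an island, 43.2%.

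CpG islands were found from the sequence as stretches of at least 200 bp with over 50% GC and an observed to expected CpG ratio over 0.6. The windows held 16 of them. A Benzonase hotspot overlapped 12 (75.0%, 95% Wilson interval 50.5 to 89.8), a Cyanase hotspot 10 (62.5%, 38.6 to 81.5) and a DNase I hotspot 4 (25.0%, 10.2 to 49.5). Of all islands of the genome, 52.1% overlapped a Benzonase hotspot, 49.8% a Cyanase hotspot and 39.3% a DNase I hotspot. All 3 intervals include the genome-wide share of their nuclease. A Benzonase or Cyanase hotspot without a DNase I hotspot was present at 8 of the 16 islands, against 13.8% of all islands. Hotspots of all 3 nucleases overlapped 4 of the 16, against 38.9% of all islands. No island had DNase I alone, a pattern that 0.182% of all islands showed.

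**Figure D3:**
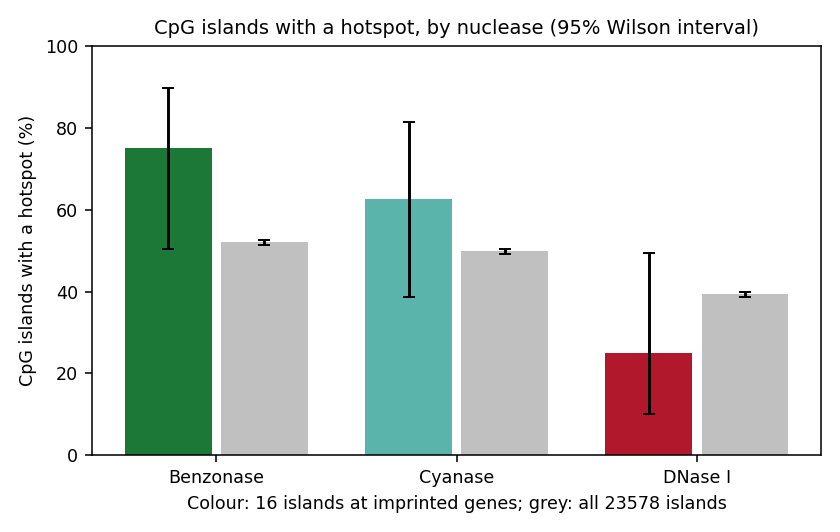
Coloured bars give the percentage of the 16 CpG islands in the windows of the imprinted genes that overlap a hotspot of each nuclease, grey bars the same over all 23578 islands, and error bars the 95% Wilson interval. The DNase I bar is at 25.0%, under its grey bar at 39.3%, while the Benzonase (75.0%) and Cyanase (62.5%) bars stand above theirs at 52.1% and 49.8%.

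The 4 islands with all 3 nucleases were those at the starts of Igf2r and Kcnq1ot1 and both islands at the start of Peg3. The 6 islands with Benzonase and Cyanase and without DNase I were at internal starts of Igf2, at Airn, at Zim1, at both 5' ends of Grb10 and at Mest. Benzonase alone covered the IG-DMR island and the second Kcnq1ot1 island. Both Dlk1 islands, the one at a start of Igf2as and the one near Gm7367 upstream of Snrpn overlapped no hotspot, which was so for 46.9% of all islands. Across the genome, 67.1% of genes with a CpG island within 1 kb of a start had a start in hotspots of all 3 nucleases, and 17.1% in Benzonase or Cyanase without DNase I.

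At least 1 annotated start of 7 of the 10 genes lay in a Benzonase hotspot, of 7 in a Cyanase hotspot and of 5 in a DNase I hotspot. Over all genes the shares were 39.0%, 37.8% and 32.2%, and over genes with a CpG island near a start they were 83.6%, 81.2% and 67.7%. H19, Meg3 and Snrpn had no such island. Igf2r, Peg3 and Kcnq1ot1 had their outermost start in hotspots of all 3 nucleases. The outermost start of the other 7 genes lay in no hotspot. H19 and Dlk1 had no start in a hotspot of any list, a pattern shared by 59.3% of all genes.

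H19 is a maternally expressed noncoding RNA (ENSMUSG00000000031, chr7:149761434-149764048, minus strand). None of its 5 annotated starts lay in a hotspot, and the closest DNase I hotspot was 41728 bp from the outermost start. The single Benzonase hotspot (chr7:149766066-149766682, 617 bp) lay 2018 to 2634 bp upstream, inside the imprinting control region. It covered 30.8% of that 2-kb interval, at a GC content of 51.9%, and its end away from H19 fell on the first capital of CTCF match 3 as printed. In windows of 617 bp at all merged regions of the genome, at least 1 match to the looser CTCF motif was present in 0.109%, and as many as 2 in 0.00212%. Because the motif was written for this control region, its presence here was given in advance. These shares are not those of CTCF sites in general. The single Cyanase hotspot lay downstream of the gene, 12860 to 13371 bp from the start. It was beyond the interval of 8 to 12 kb downstream that holds the known endodermal enhancers of H19 and Igf2, in which no list had a hotspot.

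Igf2, a paternally expressed fetal growth factor (ENSMUSG00000048583, chr7:149836673-149852721, minus strand), had starts in all 3 lists, but at different places. The DNase I hotspot (chr7:149847552-149848296, GC 37.3%) covered the start 4946 bp from the outermost one and overlapped no other list. The 2947-bp CpG island 5498 to 8444 bp from the outermost start was overlapped by Benzonase over 866 bp and by Cyanase over 569 bp, and by DNase I nowhere. Benzonase had 4 hotspots in and beside this island, with GC contents from 60.6 to 67.9%, and covered 4 starts. Cyanase had 1 (GC 62.2%) at 1 start. A region 11.6 to 12.4 kb upstream was found by all 3 nucleases with nearly the same edges and a GC content of 53.0 to 53.6%. The last exon, placed as Igf2 DMR2, had no hotspot.

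Igf2r, the maternally expressed receptor that takes up IGF2 for degradation (ENSMUSG00000023830, chr17:12875272-12962530, minus strand), showed both patterns in 1 gene. Its own promoter island (DMR1, GC 71.0%, 111 CpGs) was covered over 898 of 951 bp by Benzonase, 894 bp by Cyanase and 580 bp by DNase I. The intronic island (DMR2, chr17:12934307-12935355, GC 63.0%, 82 CpGs) is the start of Airn, the paternally expressed antisense RNA that silences Igf2r in cis. Cyanase covered 787 of its 1049 bp with a hotspot of 1001 bp. The Benzonase hotspot there was 277 bp wide, narrower than its list's lower width quartile of 482 bp, and covered 65 bp of the island, although it held the Airn start. DNase I had no hotspot on the island and 1 just upstream of Airn (chr17:12933018-12933672, GC 46.1%), which no other nuclease had and which ended 420 bp before the Benzonase-Cyanase region. This is the pair of sequences printed above.

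Of the 12 DNase I hotspots at Igf2r, 6 were DNase I unique, with GC contents from 40.5 to 52.0%, and 6 were common. The common ones included an intronic site 9.5 to 10.2 kb from the start. Benzonase alone had a hotspot at an exon of Igf2r near its 3' end, in a hotspot of 468 bp.

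Meg3, a maternally expressed noncoding RNA (ENSMUSG00000021268, chr12:110779211-110809936, plus strand), is controlled by the IG-DMR, here placed 11 to 16 kb upstream. In this 5-kb interval all 3 nucleases had a hotspot about 13 kb upstream, with a GC content of 45.5 to 46.5%. Beside it Benzonase had another hotspot (chr12:110766229-110766791, 563 bp, GC 51.9%) that covered the whole 220-bp island printed above with its 5 hexamers. The interval held 9 hexamers in all, of which 1 lay in the hotspots of all 3 nucleases, 5 in the Benzonase hotspot alone and 3 in none.

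No nuclease had a hotspot at the outermost Meg3 start. A Cyanase hotspot of 270 bp covered an internal start 1022 bp downstream, and hotspots of all 3 nucleases overlapped 1.7 to 2.3 kb downstream of the outermost start (GC 55.9 to 58.1%). Sites 8.8 to 9.6 kb and up to 19.8 kb upstream were also common to all 3. Cyanase had 4 hotspots at Meg3 that no other list shared, with GC contents from 55.6 to 63.3% and widths from 251 to 501 bp. DNase I had 1 of its own, 7.1 to 7.9 kb upstream (GC 49.9%).

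Dlk1, a paternally expressed transmembrane protein of the Notch ligand family in the same cluster as Meg3 (ENSMUSG00000040856, chr12:110691033-110701546, plus strand), had no hotspot in its body. Its promoter island of 862 bp (GC 70.4%) and the island in its last exon (284 bp, GC 68.3%) were in none of the lists. Benzonase and Cyanase shared a pair of sites 14.6 to 16.6 kb upstream, with GC contents from 56.0 to 60.3%. The closest DNase I hotspot was 59434 bp from the outermost start.

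Peg3, a paternally expressed zinc finger protein (ENSMUSG00000002265, chr7:6656603-6683132, minus strand), had the widest region of the set, and it was found by all 3 nucleases. It ran over 3759 bp from 420 bp upstream to 3338 bp downstream of the start. Cyanase had it as 1 hotspot, while Benzonase (745 and 2873 bp) and DNase I (402 and 2844 bp) each left a gap in it shortly after the start. Both islands (GC 63.3% and 66.1%) were fully covered by Benzonase and Cyanase, and DNase I covered all 335 bp of the one and 188 of 336 bp of the other.

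The Peg3 region is known for an array of sites of the zinc finger protein YY1. This motif was chosen after the hotspots had been seen. A search for GCCATNTT on both strands found 12 matches in the region, all on the minus strand, the strand of Peg3 transcription, and all inside hotspots of all 3 nucleases. The 4 matches nearest to the start are shown in the direction of Peg3 (chr7:6682292-6682315, chr7:6682186-6682209, chr7:6681583-6681606 and chr7:6681442-6681465), with the match in capitals.
YY1 match 1: cagttggcGCCATCTTggagggtg
YY1 match 2: cgcttggcGCCATCTTgaaatgac
YY1 match 3: atcctggcGCCATCTTtcctggcc
YY1 match 4: accctgacGCCATCTTtgctggct
At all merged regions of the genome, windows of 3759 bp held at least 1 match in 51.6% and as many as 12 in 0.00423%. Because the region is known for this array, the presence of matches was given in advance. Further along, the start of Zim1, an imprinted zinc finger gene next to Peg3, lay in Benzonase and Cyanase hotspots (GC 55.5% and 59.3%) that covered its 285-bp island, and in no DNase I hotspot.

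Snrpn encodes a splicing factor and is expressed from the paternal allele (ENSMUSG00000000948, chr7:67127388-67285105, minus strand). It had no CpG island at either of its 2 annotated starts. The outermost start had no hotspot within 1 kb, with the closest in a Benzonase hotspot 3973 bp away at a GC content of 39.2%. The inner start, 135063 bp further along and known as the promoter that holds the Snrpn DMR, lay in a Benzonase hotspot of 556 bp (GC 52.2%). A wider Benzonase hotspot of 969 bp followed directly, with a Cyanase hotspot of 811 bp inside it (GC 57.6 and 58.7%), and DNase I had none here. The 969-bp region held 5 of the TGCCGC hexamers. At least 1 was present in 15.6% of windows of that length at all merged regions, and as many as 5 in 0.129%. As at the IG-DMR, these shares only describe the region. The only DNase I hotspot in the Snrpn window lay at Snord64, downstream of the gene, at a GC content of 33.3%.

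Kcnq1ot1 is a paternally expressed noncoding RNA that starts in an intron of Kcnq1 and silences the genes around it. Its start was placed by the single exact match of its 300-base RefSeq promoter to mm9 (chr7:150482403-150482702, minus strand). A common region covered the start and extended 627 bp upstream and 1196 bp downstream in the Benzonase list, 620 and 390 bp in the Cyanase list, and 459 and 292 bp in the DNase I list. The island at the start (246 bp, GC 57.7%) was covered whole by all 3. The second island of this control region, KvDMR1, began 723 bp downstream (420 bp, GC 61.4%, 41 CpGs), and was covered whole by Benzonase and not at all by Cyanase or DNase I. The other 4 Benzonase and 4 Cyanase hotspots in the window were all common to the 3 nucleases, and no region of the window was Benzonase-Cyanase unique. DNase I had 2 hotspots of its own (GC 37.0% and 44.3%).

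Grb10 encodes an adaptor protein that restrains insulin and growth factor signalling, and is maternally expressed outside the brain (ENSMUSG00000020176, chr11:11830511-11938686, minus strand). Both CpG islands at its 5' end were overlapped by Benzonase and Cyanase hotspots and by no DNase I hotspot. At the upstream island (1619 bp, GC 72.6%) Benzonase covered 981 bp and Cyanase 782 bp. The Benzonase hotspot over the start there had the highest GC content of any in the windows, 76.7%. At the downstream island (1026 bp, GC 68.3%, 133 CpGs), placed as the Grb10 DMR and known as the start of the transcripts made from the paternal copy in brain, Benzonase covered 814 bp and Cyanase 608 bp, and the start there lay in the Benzonase hotspot alone. The closest DNase I hotspot to the outermost start was 25257 bp away.

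In the 3' part of Grb10 the lists coincided. There 8 regions, 63.4 to 110.5 kb from the outermost start, had hotspots of all 3 nucleases, with GC contents of single hotspots from 37.7 to 51.7%. DNase I had 4 further hotspots there and downstream (GC 41.0 to 44.7%), 1 of them over an internal start 92353 bp from the outermost one. Benzonase and Cyanase shared 1 region there without DNase I, at a GC content of 47.1 to 47.6%.

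**Figure D4:**
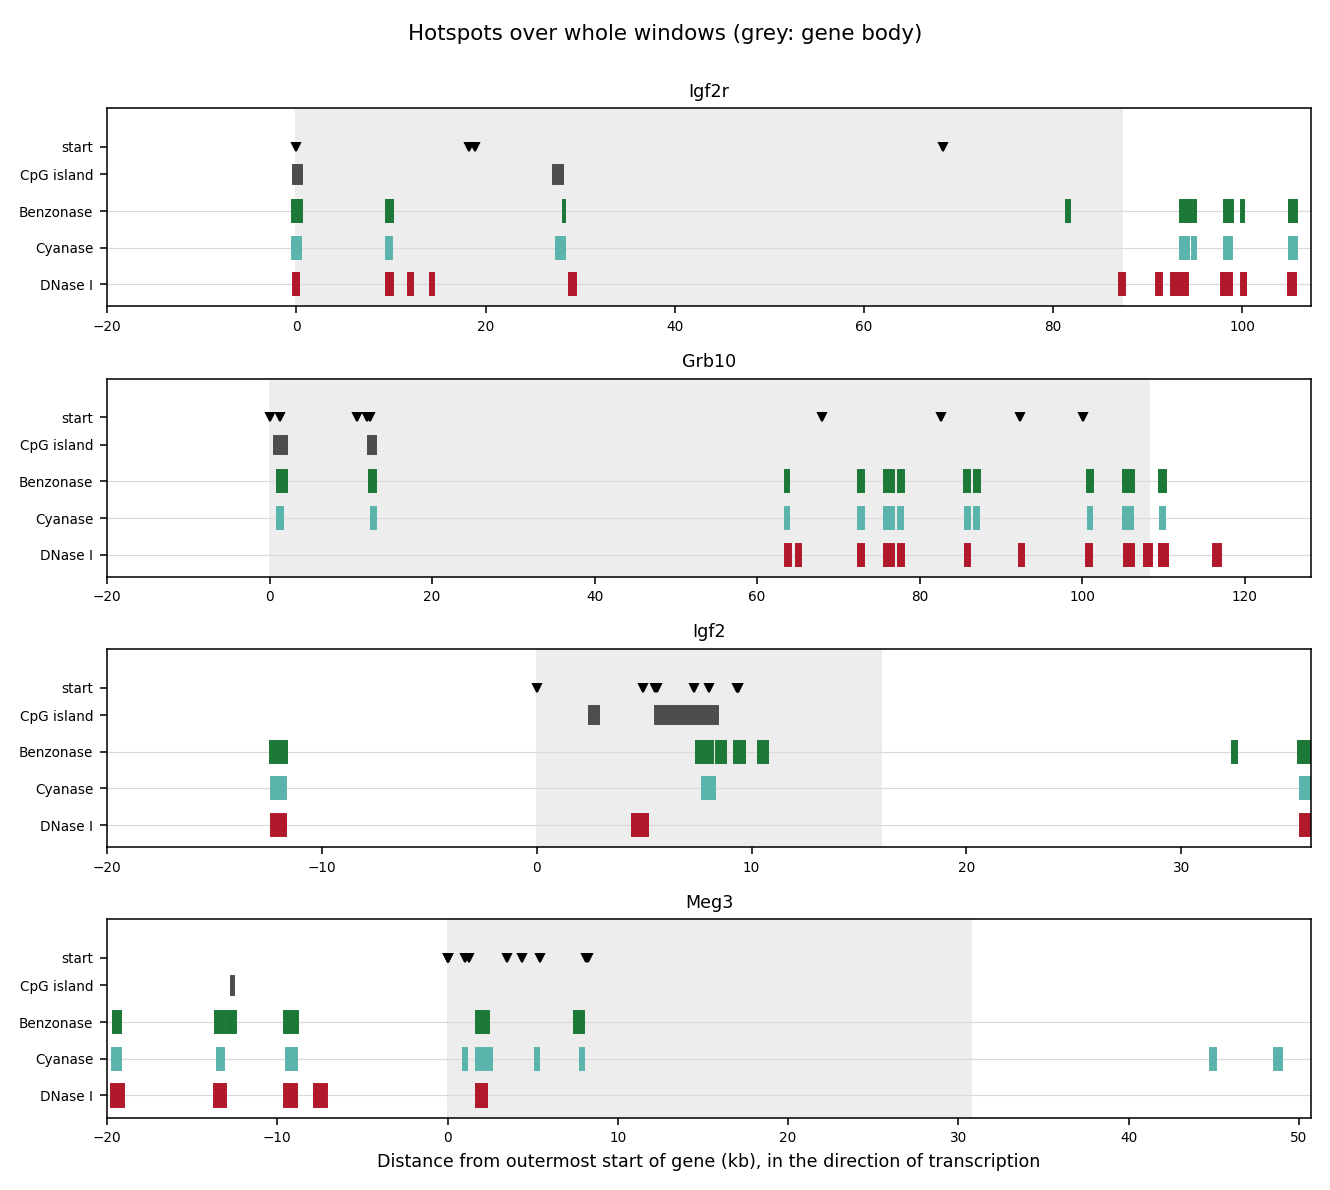
Tracks show the hotspots of each nuclease, CpG islands and annotated starts (triangles) over the windows of Igf2r, Grb10, Igf2 and Meg3, with the distance from the outermost start in kb on the x axis and the gene body in grey. Both Grb10 islands, the larger Igf2 island and the Airn island in Igf2r carry Benzonase and Cyanase hotspots and no DNase I hotspot, while the 3' part of Grb10 shows hotspots of all 3 nucleases.

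Mest, a paternally expressed member of the hydrolase fold family (ENSMUSG00000051855, chr6:30673547-30698457, plus strand), had 1 hotspot per list. Benzonase (748 bp, GC 64.8%) and Cyanase (696 bp, GC 65.1%) met at a cluster of 4 starts 14503 to 14516 bp from the outermost one. They covered 529 and 510 of the 592 bp of the island placed as the Mest DMR (58 CpGs). The DNase I hotspot lay more than 10 kb upstream of the outermost start, at a GC content of 42.9%.

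Over the 14 intervals placed as DMRs, Benzonase had a hotspot in 10, Cyanase in 9 and DNase I in 5. Of all CpG islands, 52.1%, 49.8% and 39.3% overlapped a hotspot in the same order. The intervals ran from 246 to 5000 bp and not all are islands, so the island shares are only a rough measure. Nor are all intervals independent. Both Peg3 islands and both KvDMR1 islands were counted separately, although each pair lay in a single common region. KvDMR1 therefore appears below both with all 3 nucleases and without DNase I. All 3 nucleases met at 5, namely the IG-DMR, both Peg3 islands, the start island of KvDMR1 and Igf2r DMR1. The last of these is known to be methylated on the paternal copy where the gene is silent, and is the promoter of the expressed copy. DNase I was absent from 6 intervals that another nuclease marked, a pattern that 13.8% of all CpG islands showed. The 6 intervals were Mest, Grb10 and Igf2r DMR2 with both Benzonase and Cyanase, the H19 control region and the second KvDMR1 island with Benzonase, and the Meg3 promoter with 111 bp of a Cyanase hotspot. Igf2 DMR2, the Dlk1 DMR and the outermost Snrpn start had none. With the inner Snrpn start in place of the outermost, a choice made after the data were seen, the counts were 11, 10 and 5. DNase I had a hotspot in no interval that Benzonase lacked.

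**Figure D5:**
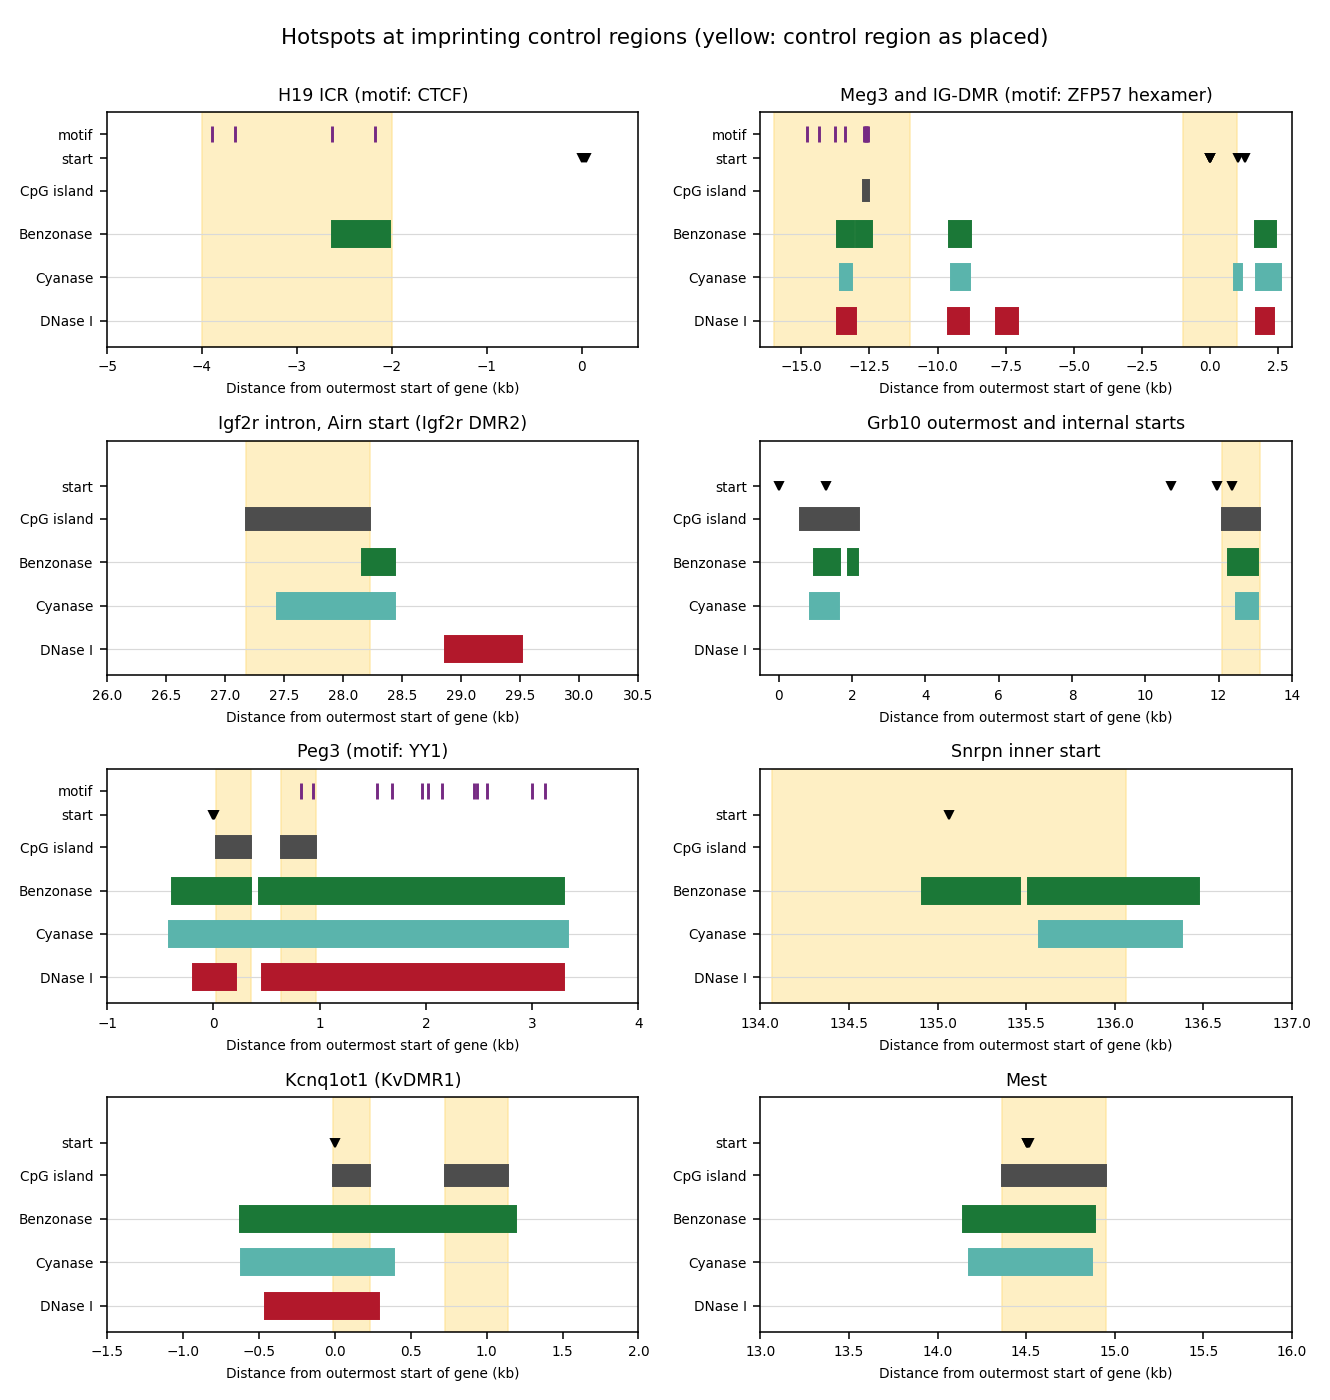
Each panel shows the hotspots of each nuclease, CpG islands, annotated starts (triangles) and, where searched, motif matches (purple) at 1 control region, with the distance from the outermost start of the gene in kb on the x axis and the control region as placed in yellow. DNase I is absent from the yellow intervals at H19, Airn, Grb10, Snrpn and Mest, and present at Peg3, the Kcnq1ot1 start and 1 of the hotspots in the IG-DMR.

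Other imprinted genes were read from a list of 51, of which 49 were in the annotation. A start of 33 lay in a Benzonase hotspot, of 32 in a Cyanase hotspot and of 21 in a DNase I hotspot. These are 67.3%, 65.3% and 42.9% of the 49, beside the shares of 39.0%, 37.8% and 32.2% of all genes. Of the 49, 36 had a CpG island within 1 kb of a start. Among these 36 the shares were 77.8% (61.9 to 88.3), 72.2% (56.0 to 84.2) and 47.2% (32.0 to 63.0). Of all genes with an island they were 83.6%, 81.2% and 67.7%. Only the DNase I interval left out the share of all genes with an island. The intervals cover counting error alone. A start of 20 of the 49 genes lay in hotspots of all 3 nucleases, against 30.8% of all genes and 67.1% of those with an island. No start lay in a hotspot for 15, against 59.3% of all genes and 15.2% of those with an island. Both counts are over all 49 genes, of which 13 had no island, so the island shares are for an unlike set.

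Benzonase or Cyanase without DNase I marked a start of 13 of the 49, against 8.56% of all genes. Among the 36 with an island the count was 11, against 17.1% of all genes with an island. The 13 genes were Airn, Dio3 (which inactivates thyroid hormone), Kcnq1 (a potassium channel), Ndn, Nnat, Peg10 (derived from a retrotransposon), Pon3, Ppp1r9a, Rasgrf1, Sfmbt2, Sgce, Tfpi2 and Zim1. Both Benzonase and Cyanase were present at 11 of these, and Benzonase alone at Ndn and Rasgrf1. An island was present at 11 of the 13, and 4 of the 13 had a DNase I hotspot within 1 kb of a start. Dcn, the gene of the matrix protein decorin, had a Cyanase and a DNase I hotspot at a start and no Benzonase hotspot. No gene of the list had DNase I alone, which was so for 0.950% of all genes and 0.310% of those with an island.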

How the data were processed

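Liver chromatin was digested with Benzonase or Cyanase (frozen tissue) or DNase I (nuclei of fresh tissue). The authors used Eland or Bowtie for alignment to mm9, combined all tags made with a nuclease, and called input-adjusted hotspots at a false discovery rate of 0%. The study also names a tag density threshold at the mode. Each list used here holds more hotspots than the study reports for that nuclease, so counts and class shares cannot be set directly against its own. The deposited lists hold chromosome, start and end, counted from 0, and were printed from 1. The genes, control regions and lists were chosen with earlier results of these data known. All 10 genes were described; other imprinted genes were named where Benzonase or Cyanase and DNase I differed at a start.

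NCBIM37 (mm9) with GENCODE release M1 was used, and Kcnq1ot1 was placed by its RefSeq sequence. CpG islands were maximal-scoring segments (17 per CpG, -1 per other base). Shares carry 95% Wilson intervals. In the Cyanase list, 2 hotspots ended past their chromosome and were shortened. Merging and island calling were tested on simulated data. The tools samtools 1.23.1, pandas 2.3.3, numba 0.67.0, numpy 2.4.6, matplotlib 3.10.9 and scipy 1.17.1 were used under Python 3.11.15. Alternatives changed the flanks, overlap rule, hotspot widths, island criteria and start definition.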

Additional observations from a re-analysis of the deposited data

How the results depend on the processing

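Of 72 values recomputed under another setting, 61 stayed within the margin set for a change. That margin was wide for counts. With flanks of 50 kb, Benzonase hotspots rose from 49 to 68, Cyanase from 44 to 64 and DNase I from 43 to 64, all within it. Taking the gene bodies without flanks left 29 Benzonase, 25 Cyanase and 22 DNase I hotspots. The Benzonase-Cyanase unique share, 39.1% in the main setting, was 35.9% of 64 regions with hotspots within 150 bp joined. It was 32.7% of 55 without narrow hotspots, 41.9% of 74 with an overlap of 50% of both, and 44.7% of 38 in gene bodies alone. Intervals and genome-wide shares are not given for these settings, so whether this share still stands apart was not tested. With the outermost start alone, 3 genes had a start in a hotspot for Benzonase, 3 for Cyanase and 3 for DNase I. With islands of at least 500 bp, over 55% GC and a CpG ratio over 0.65, 7 islands were left and 85.7% overlapped a Cyanase hotspot. Counting a control region when the midpoint of a hotspot lay in it gave 5 for Benzonase, 5 for Cyanase and 2 for DNase I, with calls lost at both Peg3 and both KvDMR1 islands, by Cyanase at the Meg3 promoter and by Benzonase at Igf2r DMR2. Widening the control regions by 1 kb on each side gave 8 for DNase I, with the Meg3 promoter, the second KvDMR1 island and Igf2r DMR2 added.

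Without hotspots narrower than the lower width quartile of their list, the Meg3 promoter lost its Cyanase hotspot, the IG-DMR its Cyanase hotspot, Igf2r DMR2 its Benzonase hotspot and a Peg3 island its DNase I hotspot. No paired analysis was possible because each list pools the libraries of a nuclease, and leaving out a replicate was not run for the same reason. Absence of a hotspot means that none was called at the depth of that list, which the lists do not give, not that the site was closed.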
